A study of Mus musculus with 3 samples.

Results

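Heat shock genes encode the chaperones that hold, fold and refold proteins. Here they are the 10 genes Hspa1a, Hspa1b, Hsph1, Dnajb1, Dnaja1, Hspa8, Hsp90aa1, Hsp90ab1, Hspd1 and Hspe1, out of 54752 gene symbols. These genes were chosen by name, with earlier results of these data known. All 10 had UMIs (unique molecular identifiers, each marking 1 captured RNA molecule) in each of the 3 libraries. The question was whether their levels differed between the libraries in all cell types alike, with Fos and Jun set beside them.

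The data were droplet single-cell RNA-Seq of heart cells from C57BL/6 mice, operated on postnatal day 10 and taken 3 days later at P13. P10-sham_vehicle mice had sham surgery and vehicle, P10-MI_vehicle mice had myocardial infarction, made by tying off the left anterior descending artery, and vehicle, and P10-MI_SB225002 mice had the infarction and SB225002, an antagonist of the chemokine receptor CXCR2. The infarct and border zones were digested with collagenase II at 37 °C for 30 min per the labels, while the methods describe shorter rounds repeated until digestion was complete, so that the total time may have differed between samples. CD45+F4/80+7AAD– cells were sorted. The methods also describe hearts pooled by zone, surgery under cooling anaesthesia with rewarming, and sodium butyrate in the isolation buffers, which all the groups shared. Each condition was 1 library, so no p-value, SE or replicate spread can be given, and the intervals below (95%) cover counting error only. A difference between libraries cannot be told apart from a difference in the handling of 1 preparation.

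Of 3390, 4511 and 5783 barcodes in the sham, vehicle and SB225002 libraries (29323567, 32498608 and 34235864 UMIs), 2352, 3454 and 4744 cells passed the limits of 500 to 30000 UMIs, 500 to 5000 genes and a mitochondrial share under 10%. Median depth was 8520, 6400 and 5654 UMIs per cell and the median mitochondrial share 5.03%, 4.36% and 3.45%, both lowest with SB225002. Cells were gated by their marker genes. C1q+ macrophages, with all 7 of their markers present in each library, made up 2021, 2380 and 3102 cells, and Ly6c+ monocytes 11, 181 and 257. The sorted samples also held other cells. By their markers, 23, 92 and 173 neutrophils, 72, 205 and 159 fibroblasts, 37, 56 and 165 endothelial cells and 20, 58 and 41 B cells were gated. T/NK cells (5, 11 and 6) were too few to compare, and 163, 471 and 841 cells were given no type, as they met no gate or conflicting ones. Between 1260 and 1844 barcode names occurred in each pair of libraries, and the mean correlation of expression was 0.0153 to 0.0170 between cells of the same name and 0.0155 to 0.0282 between cells paired with the next name. Levels are given as UMIs per 1000000 UMIs of the gated cells (CPM), and ratios as log2 of the quotient of 2 CPM values.

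Stress on proteins frees the transcription factor HSF1, which trimerizes and binds heat shock elements, inverted repeats of GAA and TTC, upstream of its targets. Hspa1a and Hspa1b, which encode the same inducible HSP70, are nearly silent in unstressed cells and rise within minutes of heat or tissue handling, and DNAJB1 and HSPH1 are their co-chaperone and nucleotide exchange factor. Hspa8, the constitutive HSC70, and Hsp90ab1 are made by every cell, and Hspd1 and Hspe1 encode the mitochondrial chaperonin. Fos and Jun are immediate-early genes that rise in dissociated tissue mainly through kinase signalling, and both groups of genes are often read as marks of tissue handling.

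Hspa1a (chr17:34969190-34972156) and Hspa1b (chr17:34956436-34959238) lie 9951 bases apart on the minus strand in GRCm38. The sequences upstream of their RefSeq starts (GRCm38.p6, minus strand, 5′ to 3′; chr17:34972157-34972356 and chr17:34959239-34959438) are shown because both genes were lower in the same library; capitals mark the letters GAA and TTC of the element GAANNTTC.
Hspa1a: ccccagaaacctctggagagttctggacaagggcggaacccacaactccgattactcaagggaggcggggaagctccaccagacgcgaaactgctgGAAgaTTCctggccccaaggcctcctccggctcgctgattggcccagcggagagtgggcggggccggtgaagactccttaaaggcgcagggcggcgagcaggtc
Hspa1b: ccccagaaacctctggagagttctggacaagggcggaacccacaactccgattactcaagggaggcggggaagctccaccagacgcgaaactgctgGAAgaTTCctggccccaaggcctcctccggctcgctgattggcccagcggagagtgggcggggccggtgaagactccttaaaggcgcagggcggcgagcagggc
Of the 200 upstream bases, 199 (99.5%) were the same in Hspa1a and Hspa1b. Both windows held GAANNTTC once, beginning 104 bases before the start. Among 32851 promoter windows of 250 bases before the start, 6.69% held GAANNTTC and 7.17% held TTCNNGAA, each of which reads the same on both strands. Windows were given for 7 of the 10 members, and not for Hspa8, Hsp90aa1 and Hsp90ab1. Hspe1 and Hspd1 lie head to head on chromosome 1. The Hspe1 window and 1 of the 2 Hspd1 windows held GAANNTTC followed, after any pair of bases, by another GAA. This longer form was present in 0.247% of windows. The other Hspd1 window and the 2 Dnajb1 windows held none of these elements. Of the other members, 1 of the 3 Dnaja1 windows held GAANNTTC and both Hsph1 windows held TTCNNGAA. The Jun window also held GAANNTTC, beginning 128 bases before the start, and the Fos window held neither element. Longer parts of the transcripts are alike as well, with 58.8% of the 50-base words of Hspa1a found in Hspa1b, but none of those in the last 400 bases. How reads that fit both genes were assigned is not given in the sources used here, so they are also given summed. For Hspa8 and Hspe1, 76.6% and 59.8% of the words in the last 400 bases also occurred in other annotated genes, chiefly Gm15459 and AC117239.2, so their counts are uncertain in the same way.

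In C1q+ macrophages, the inducible HSP70 genes were lower in the SB225002 library, and no other member differed by 1.5 times. Hspa1a was at 35.9 CPM in the sham library (669 UMIs), 27.7 CPM in the vehicle library (477 UMIs) and 8.50 CPM in the SB225002 library (174 UMIs). Hspa1b was at 13.2, 10.4 and 2.15 CPM (246, 179 and 44 UMIs). Sham and vehicle were closer to each other, and the SB225002 library lay below both without overlap of the intervals. Against vehicle, the log2 ratio of the SB225002 library was −1.70 (interval −1.96 to −1.45) for Hspa1a and −2.27 (−2.78 to −1.79) for Hspa1b. Summed, the pair was at 49.1, 38.1 and 10.7 CPM, 3.57 times lower with SB225002 than with vehicle and 4.61 times lower than in sham.

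**Figure D1:**
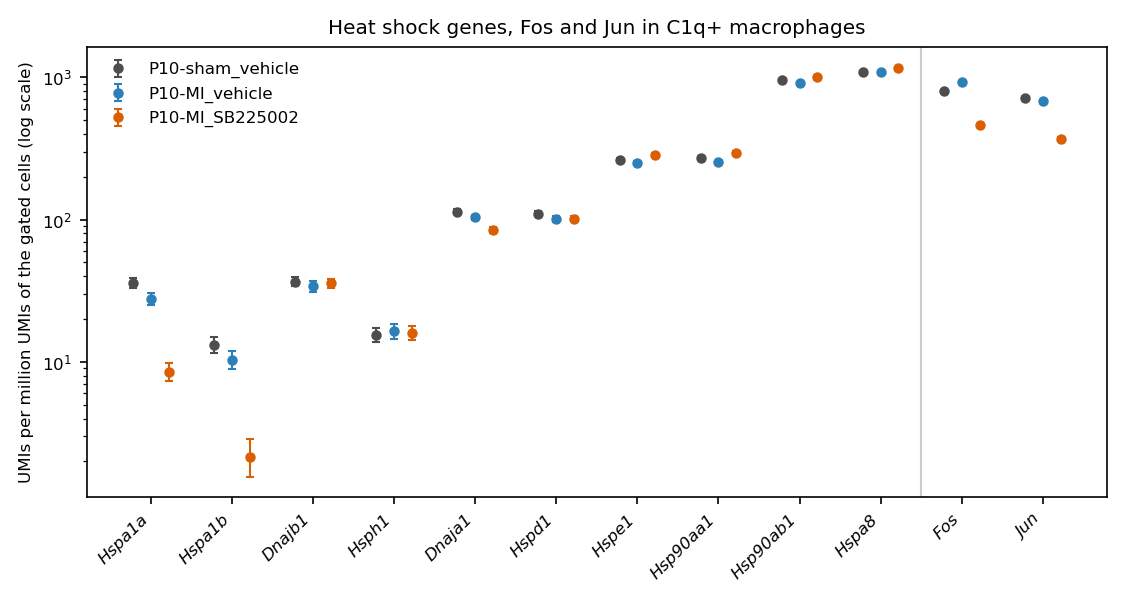
CPM (log axis) of the 10 heat shock genes and of Fos and Jun in C1q+ macrophages, with 1 point per library and 95% exact Poisson intervals. Hspa1a and Hspa1b in the SB225002 library (8.50 and 2.15 CPM) lie below the other libraries, Dnajb1 and Hsph1 do not, and Fos and Jun are lower by a smaller factor.

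The partners of HSP70 were at like levels in the 3 libraries. Dnajb1, the J-domain protein that hands clients to HSP70, was at 36.6, 33.9 and 35.6 CPM in sham, vehicle and SB225002 macrophages. Hsph1, the HSP110 exchange factor, was at 15.5, 16.4 and 15.9 CPM. The intervals of the 3 libraries overlapped for both genes, and the log2 ratios of SB225002 over vehicle were 0.07 (−0.09 to 0.23) for Dnajb1 and −0.04 (−0.28 to 0.19) for Hsph1. Their direction was not stable, since thinning each cell to 1000 UMIs gave −0.20 for Dnajb1 and TMM scaling gave 0.01 for Hsph1. Dnaja1, a J-domain protein of the cytosol, was the other member that was lower, at 114, 104 and 85.0 CPM, a log2 ratio of −0.29 (−0.38 to −0.19).

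Most of the abundant chaperones were slightly higher with SB225002. Hspa8 was at 1085, 1095 and 1156 CPM, and Hsp90ab1 at 955, 910 and 1004 CPM. Hsp90aa1, the stress-inducible HSP90, was at 271, 252 and 295 CPM. The mitochondrial Hspe1 was at 262, 249 and 285 CPM, whereas its partner Hspd1 was at 110, 100 and 102 CPM. Against vehicle, the log2 ratios of SB225002 were 0.23 for Hsp90aa1, 0.20 for Hspe1, 0.14 for Hsp90ab1, 0.08 for Hspa8 and 0.02 for Hspd1. Only the interval of Hspd1 (−0.08 to 0.11) held 0.

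Counted by a ratio of at least 1.5 times among genes with 20 CPM or more in either library, 8 of the 10 members were measured in macrophages (Hspa1b and Hsph1 stayed under 20 CPM). For SB225002 over vehicle, 1 member was lower, Hspa1a, and 0 were higher, beside 3.38% lower and 2.65% higher of all 6648 genes. The members' median log2 ratio was 0.08 and that of all genes −0.03. Hspa1a held rank 11 from the lowest ratio among the 6648 genes, Fos rank 50 and Jun rank 73. Against sham, 1 member was again lower and 0 higher, beside 5.46% lower and 4.48% higher of all 6743 genes. For vehicle over sham, 0 members were called in either direction, beside 0.766% lower and 2.18% higher of all 6656 genes. In that comparison Hspa1a had a log2 ratio of −0.37 (−0.55 to −0.20) and Hspa1b of −0.34 (−0.63 to −0.06), so both were lower in the vehicle library too, by less. Under other ways of processing, the ratio ranged from −0.52 to −0.33 for Hspa1a but from −0.48 to −0.02 for Hspa1b.

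Beside the members, Fos was at 794, 927 and 464 CPM in sham, vehicle and SB225002 macrophages. Jun was at 719, 681 and 370 CPM. For both, SB225002 was again the lowest library, with log2 ratios to vehicle of −1.0 (−1.04 to −0.96) and −0.88 (−0.92 to −0.84). Fos was higher in vehicle than in sham (0.22, 0.19 to 0.26), opposite in direction to Hspa1a in the same comparison.

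Across cell types, the pair Hspa1a and Hspa1b was lower with SB225002 in each of the 5 types with 10 or more UMIs, although single cells held much of the counts. In fibroblasts, the pair was at 69.1, 78.3 and 27.5 CPM (37, 113 and 34 UMIs), which put SB225002 at a log2 ratio to vehicle of −1.51 (−2.11 to −0.95). In endothelial cells, 5, 13 and 4 UMIs gave 21.8, 50.4 and 5.62 CPM, a ratio of −3.17 (−5.24 to −1.47). The interval left out 0 in both types. The makeup of both gates differed between the libraries. In the fibroblast gate, mural markers summed to 142, 534 and 1851 CPM and dividing cells were 1.39%, 6.83% and 15.1%. In the endothelial gate, hemoglobin genes summed to 3944, 2724 and 32.3 CPM, mural markers to 898, 101 and 157 CPM, and dividing cells were 13.5%, 1.79% and 23.6%. Without dividing cells, the ratio was −1.51 in fibroblasts and −3.51 in endothelial cells, and the part of the other markers was not tested. In fibroblasts, however, the ratio was −0.56 when each cell was thinned to 1000 UMIs and −0.80 without the barcode names that occur in more than 1 library. The same steps gave −1.87 and −1.94 in macrophages. The thinned fibroblasts held only 8 SB225002 and 15 vehicle UMIs of the pair, and the thinned macrophages 31 and 87. So few fibroblast UMIs cannot show whether the ratio depended on depth. In neutrophils, 1, 21 and 11 UMIs gave 3.11, 16.9 and 8.67 CPM, and the ratio of −0.96 (−2.16 to 0.15) was not separated from 0 at this depth. The makeup of the neutrophil gate differed too, with neutrophil markers at 267363, 241447 and 181112 CPM. Macrophage markers summed there to 483, 1398 and 2312 CPM, and their part was not tested. B cells had 3, 2 and 0 UMIs, where a count of 0 allows up to 21.1 CPM. The cells given no type, some of which may have met conflicting gates, had 54.1, 36.8 and 14.1 CPM, a ratio of −1.38 (−1.80 to −0.98).

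Ly6c+ monocytes appeared to differ, with 36.3 CPM in sham (5 UMIs), 58.0 CPM in vehicle (87 UMIs) and 43.3 CPM in SB225002 (85 UMIs), a ratio of SB225002 over vehicle of −0.42 (−0.87 to 0.03), and of 0.06 without dividing cells. However, 60 of the 85 UMIs came from 1 cell of 24770 UMIs with a mitochondrial share of 1.51%. The next cell held 6, and the highest vehicle monocyte held 5. They were 41 of Hspa1a and 19 of Hspa1b, and the cell also held 8 UMIs of Hsph1, 53 of Hsp90aa1, 93 of Hspa8, 18 of Hspe1, 14 of Hspd1 and 3 of Dnajb1. When the highest cell of each library and type was left out, the SB225002 monocytes were at 12.9 CPM (25 UMIs) and the vehicle monocytes at 55.0 CPM (82 UMIs), and the ratio was −2.09 (−2.80 to −1.43). Without these cells, the interval lay below 0 in 4 of the 5 types instead of 3, with ratios from −2.91 in endothelial cells to −1.04 in neutrophils, and −1.85 in macrophages. In the share of cells with a UMI of either gene, 26.5% of vehicle monocytes (48 of 181) and 6.61% of SB225002 monocytes (17 of 257) were positive. In the monocyte gate, monocyte markers summed to 5461, 4953 and 4217 CPM in sham, vehicle and SB225002. Neutrophil markers summed there to 10907, 11204 and 16827 CPM (5, 7 and 10 of 10 markers), and their part was not tested.

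**Figure D2:**
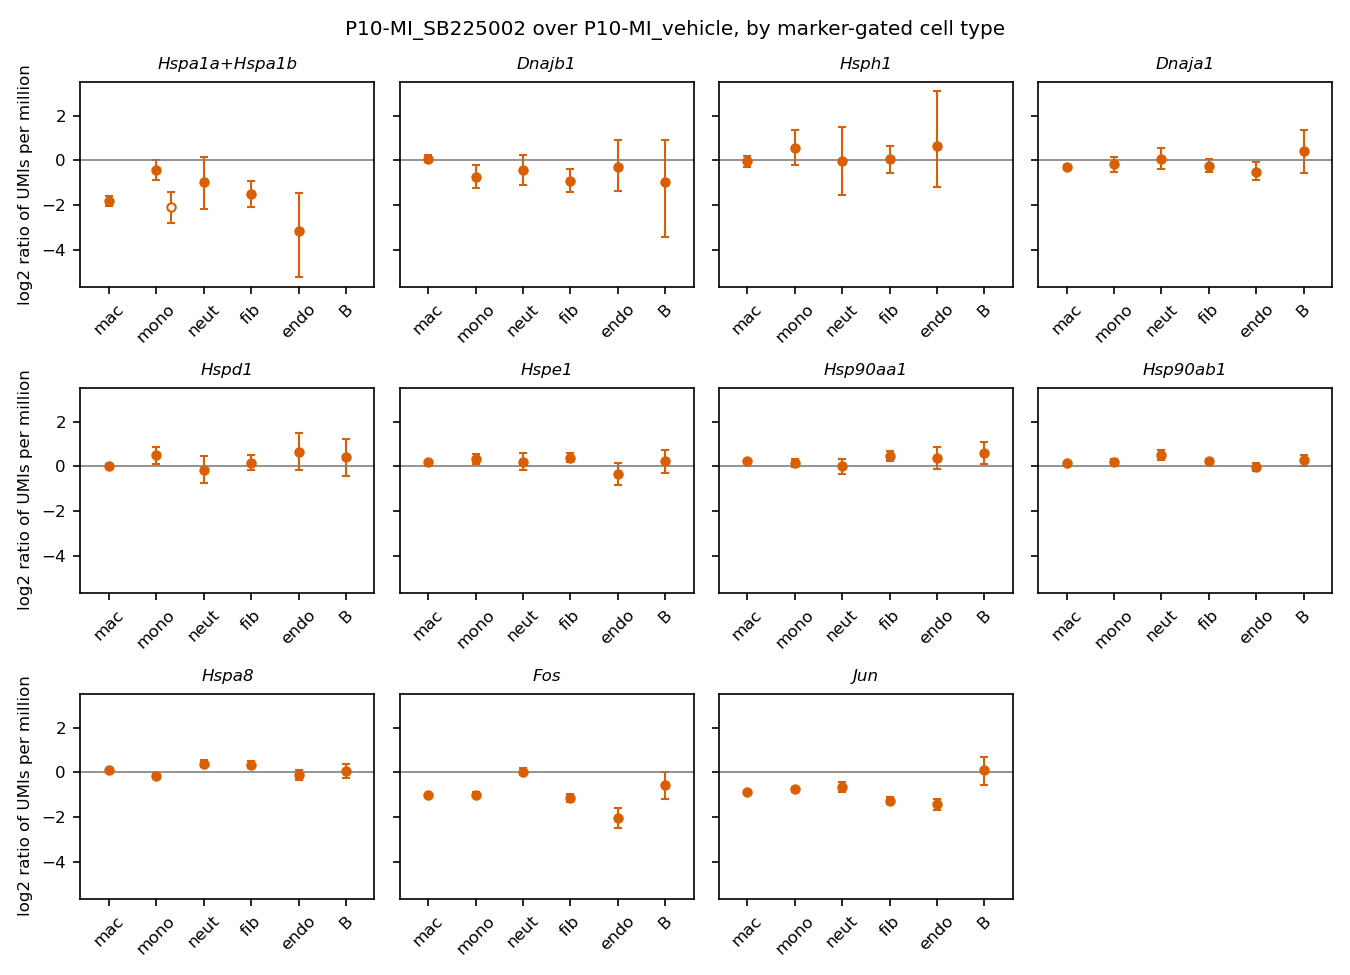
Log2 ratio of CPM, SB225002 over vehicle, for the summed Hspa1a and Hspa1b, the other members, Fos and Jun (1 panel each) in macrophages (mac), monocytes (mono), neutrophils (neut), fibroblasts (fib), endothelial (endo) and B cells, with 95% exact intervals; types with under 10 UMIs are not drawn. The open circle gives the monocytes without the highest cell of each library (−2.09).

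The HSP70 partners differed by cell type. Dnajb1 was lower with SB225002 in monocytes (50.8, 50.7 and 30.6 CPM; ratio to vehicle −0.73, −1.24 to −0.22) and in fibroblasts (56.0, 74.2 and 39.6 CPM; −0.91, −1.42 to −0.40), and its ratio was below 0 in 5 of 6 types, with 0.07 in macrophages as the exception. Intervals held 0 in the other 4 types. The ratio of Hsph1 lay between −0.04 and 0.65 in the 5 types compared, and all 5 intervals held 0. In fibroblasts, for instance, it was at 42.9, 36.7 and 38.0 CPM. Dnaja1 was lower in endothelial cells, at 209, 314 and 222 CPM (ratio to vehicle −0.50, −0.90 to −0.10), besides macrophages.

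Hsp90ab1 was higher with SB225002 than with vehicle by intervals above 0 in 5 of 6 types, from 0.14 in macrophages to 0.50 in neutrophils, and was at −0.04 in endothelial cells. Hspe1 was higher in 3 types and Hsp90aa1 in 3, both including macrophages and fibroblasts. In fibroblasts, Hspe1 was at 196, 262 and 344 CPM in sham, vehicle and SB225002. Hspa8 was higher in macrophages, neutrophils (439, 458 and 593 CPM) and fibroblasts (504, 534 and 675 CPM) but lower in monocytes (1661, 1301 and 1152 CPM). Under the alternatives, the neutrophil ratios lay between 0.18 and 0.92 for Hsp90ab1 and between 0.15 and 0.57 for Hspa8. Hspd1 was higher only in monocytes by its interval (63.4 and 88.7 CPM in vehicle and SB225002; 0.49, 0.12 to 0.86), and without the highest cells of the pair it was so in 0 types, and Hsp90ab1 in 4. Of the 7 members measured in all 6 types, 0 were higher in all of them and 0 lower in all of them, beside 12.5% of 5435 genes that were higher and 5.48% that were lower in all 6. Hspa1a, Hspa1b and Hsph1 were not among these 7, having under 10 UMIs in B cells. The ratio of Hsp90aa1 was above 0 in 5 of 6 types, the lowest being −0.01, and in 6 of 6 without the highest cells of the pair.

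Fos and Jun had their own pattern over the types. Jun was lower with SB225002 in 5 of 6 types by its interval, from −0.67 in neutrophils to −1.44 in endothelial cells, with B cells at 0.08 (−0.55 to 0.69). Fos was lower in 4 types (5 without the highest cells of the pair), from −1.0 in macrophages and monocytes to −2.06 in endothelial cells. In neutrophils, however, Fos was at 333, 554 and 565 CPM, a ratio of SB225002 over vehicle of 0.03 (−0.13 to 0.18), while Jun in the same cells was at 286, 372 and 233 CPM. Under 11 alternatives, the neutrophil ratio of Fos lay between −0.19 and 0.25. The median depth of neutrophils was 12411, 12946.5 and 6388 UMIs and their TMM factors were 0.912, 0.970 and 1.13 in sham, vehicle and SB225002. Endothelial cells, with 763, 1044 and 384 CPM of Jun, had the lowest ratios for Fos, Jun and the summed pair, and fibroblasts came next for Fos and Jun.

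For vehicle over sham, the types other than macrophages held 1 to 37 UMIs of the pair in the sham library. The ratio was −0.37 (−0.51 to −0.22) in macrophages, while it was above 0 in the other 4 types compared, from 0.18 in fibroblasts to 2.44 in neutrophils, with intervals that held 0 in all 4. For SB225002 over sham it was −2.20 (−2.42 to −1.99) in macrophages and −1.33 (−2.04 to −0.62) in fibroblasts, and in monocytes and neutrophils it was 0.26 and 1.48 with intervals that held 0. Without the highest cell of each library and type, the monocyte ratio was −0.78 (−2.50 to 1.59). The sham neutrophils then held 0 UMIs of the pair, which gave no ratio. Dnajb1 had 0 intervals away from 0 in either comparison with sham, over 6 and 5 types.

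The order of the types was not fixed. The summed pair was highest in fibroblasts in the sham and vehicle libraries and in monocytes in the SB225002 library, where 1 cell set that place, and between 4 and 5 of the 5 neighbouring steps in each order had overlapping intervals. Neutrophils were lowest for Hspa8, Hsp90aa1, Hsp90ab1, Hspd1 and Hspe1 in all 3 libraries. B cells were highest for Hspd1, Hspe1 and Hsp90aa1 in each library, and endothelial cells for Dnaja1.

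At the level of cells, a smaller share of the SB225002 macrophages carried any HSP70 UMI. A UMI of Hspa1a or Hspa1b was found in 448 of 2021 sham (22.2%), 348 of 2380 vehicle (14.6%) and 171 of 3102 SB225002 macrophages (5.51%). With each cell thinned to 1000 UMIs, leaving out 28, 53 and 79 shallower cells, the shares were 3.76% (2.97 to 4.69), 3.44% (2.74 to 4.26) and 0.893% (0.589 to 1.30). After thinning, the intervals of sham and vehicle overlapped and that of SB225002 lay below both. A cell that held any UMI of the pair had 2.04, 1.89 and 1.27 of them before thinning, and 1.21, 1.09 and 1.15 after it. At 1000 UMIs a carrier seldom holds more than 1 UMI of the pair, so the thinned values cannot show whether carriers differed. In fibroblasts, the shares before thinning were 25.0% (18 cells), 21.0% (43 cells) and 14.5% (23 cells). The thinned shares there were 7.04% (5 of 71 cells), 6.63% (13 of 196) and 5.19% (8 of 154), with overlapping intervals. So few positive cells cannot show whether the lower CPM went with a lower share. For Dnajb1 the thinned shares were 3.36%, 3.61% and 3.27%, with overlapping intervals. No gated type can be taken to lack these genes. B cells, with the fewest UMIs of the pair and median depths of 6786, 3787 and 2066 UMIs, held a UMI of the pair in 1 of 20, 2 of 58 and 0 of 41 cells before thinning, and in 0 of 20, 57 and 39 after it. The interval of the SB225002 B cells reached 8.60%, above the 5.51% of the macrophages of that library, so that share cannot be set above free RNA.

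Before thinning, cells with 5 or more UMIs of the pair numbered 39 among sham (1.93%), 22 among vehicle (0.924%) and 1 among SB225002 macrophages (0.0322%). The highest sham macrophage had 22, of which 21 were of Hspa1a. UMIs of both genes were present in 21 of the 39 sham cells and 17 of the 22 vehicle cells. Dnajb1 was found in 12 and 9 of them, beside 25.3% and 19.1% of the remaining macrophages, and Hsph1 in 8 and 6, beside 11.8% and 10.1%, while their median depths (12501 and 10674 UMIs) were higher. In all, macrophages with a UMI of the pair (median depths 10487, 8382 and 7683 UMIs, against 8007, 6105 and 5654 in the rest) had 40.4, 44.9 and 43.7 CPM of Dnajb1 in the 3 libraries against 35.2, 31.4 and 35.0 CPM in those without. Fos was 1030, 1194 and 704 CPM in carriers and 709, 866 and 445 CPM in the rest, so it was higher in carriers within each library and lower with SB225002 in both kinds of cell.

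**Figure D3:**
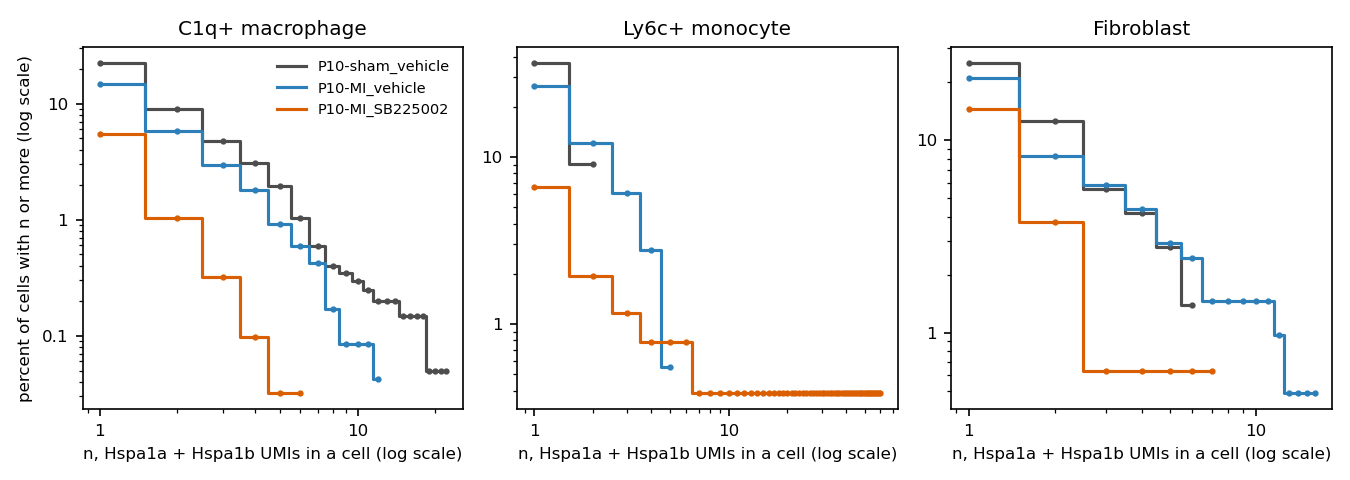
Percent of cells with at least n UMIs of Hspa1a and Hspa1b summed, against n (both axes log), in macrophages, monocytes and fibroblasts of the 3 libraries. The SB225002 line lies below the other lines in macrophages, from 5.51% at n = 1, and in monocytes it ends in the single cell of 60 UMIs.

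The libraries differed in depth, mitochondrial share and the makeup of the macrophages, so the pair was also read within strata. Dividing cells were 36.1%, 26.1% and 36.1% of macrophages, and those with a UMI of Lyve1, a marker of resident macrophages, 39.7%, 31.6% and 19.3%. In dividing macrophages the pair was at 35.6, 31.1 and 7.47 CPM and in the others at 59.4, 41.6 and 13.3 CPM. With a Lyve1 UMI it was at 49.5, 41.4 and 15.3 CPM and without at 48.7, 36.3 and 9.40 CPM. Over 11 strata by mitochondrial share, depth, division and Lyve1, the pair's log2 ratio of SB225002 over vehicle stayed between −2.09 and −1.43, beside −1.84 in all macrophages. For Fos it lay between −1.21 and −0.79 and for Jun between −0.97 and −0.70. In the macrophage gate, monocyte markers summed to 86.3, 301 and 428 CPM (6 of 6 markers in each library), mural markers to 8.95, 26.3 and 40.2 CPM (6 of 6) and endothelial markers to 10.8, 13.4 and 19.6 CPM (7 of 7), all highest with SB225002. Those of neutrophils summed to 650, 2206 and 2367 CPM (9, 10 and 10 of 10 markers, with Ly6g at 0 in sham), those of fibroblasts to 17.3, 34.8 and 32.1 CPM and hemoglobin genes to 103, 13.3 and 11.1 CPM, and their part in the result was not tested.

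**Figure D4:**
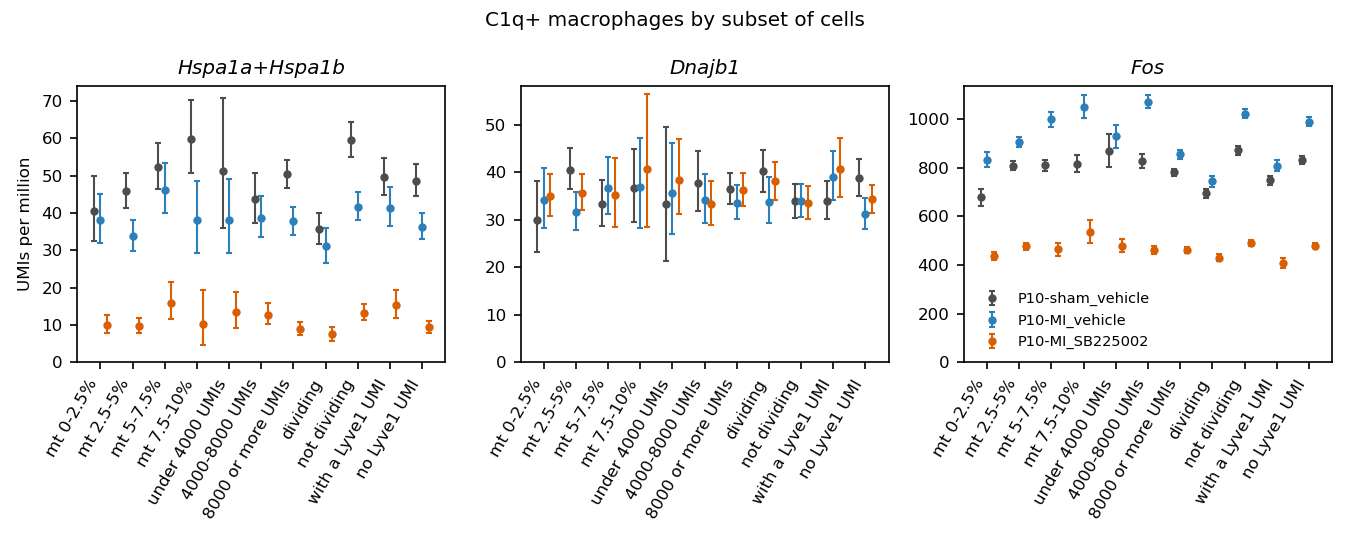
CPM of Hspa1a and Hspa1b summed, Dnajb1 and Fos (linear axes) in subsets of the C1q+ macrophages by mitochondrial (mt) share, UMIs per cell, division and Lyve1, with 1 point per library and 95% exact Poisson intervals. The SB225002 points of Hspa1a and Hspa1b (7.47 to 15.9 CPM) lie below the others in each subset, as they do for Fos, while those of Dnajb1 have intervals that overlap both other libraries.

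Other genes of the same pathways were read from lists. Of 43 other heat shock and co-chaperone genes, most of them of the cytosol but Hspa9 and Trap1 of mitochondria and Hspa13 and Serpinh1 of the endoplasmic reticulum, 32 were measured in macrophages for SB225002 over vehicle. The list's median log2 ratio was 0.21, beside −0.03 for all genes, with 1 gene higher and 1 lower by 1.5 times. The lowest were Hspb1, the small heat shock protein HSP27 (16.7, 22.1 and 8.21 CPM in sham, vehicle and SB225002; −1.43, −1.70 to −1.16), and St13, the HSP70-interacting protein (202 to 144 CPM, −0.48). The highest were Fkbp4, an HSP90 co-chaperone (38.9 to 59.9 CPM, 0.62), and Cct7, a subunit of the cytosolic chaperonin (87.9 to 122 CPM, 0.47). Bag3, an HSF1 target that binds HSP70, was at 25.8, 23.2 and 25.2 CPM in the 3 libraries and Hsf1 itself at 23.4, 17.9 and 18.5 CPM, and these 2 genes were named after their values were seen. Against sham, 0 of the 32 genes that reached 20 CPM were past 1.5 times and their median was 0.11. Hspb1 was under that minimum in both of these libraries, with a log2 ratio of −1.02 (−1.30 to −0.75).

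Endoplasmic reticulum stress genes, which answer to unfolded protein in another compartment, had 0 of 15 measured genes past 1.5 times and a median of 0.14. Their lowest ratios were those of Dnajb9 (−0.35) and Hspa5, the chaperone BiP (−0.14), and their highest those of Creld2 (0.56) and Manf (0.50). Of 20 other immediate-early genes, 10 were lower and 0 higher, with a median of −0.60. Fosb (127 to 41.7 CPM, −1.60) and Egr1 (269 to 122 CPM, −1.15) were lowest, and Cebpb (319 to 436 CPM, 0.45) and Cebpd (0.02) highest. For SB225002 over sham, 8 were lower and 2 higher. For vehicle over sham, by contrast, 1 of the 20 was higher, Nr4a1 (16.1 to 40.8 CPM, 1.34), and 0 lower. The cold-inducible RNA-binding genes Rbm3 and Cirbp were at 526, 404 and 570 CPM and at 34.7, 26.0 and 28.2 CPM, and for SB225002 over vehicle their log2 ratios were 0.50 and 0.12.

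**Figure D5:**
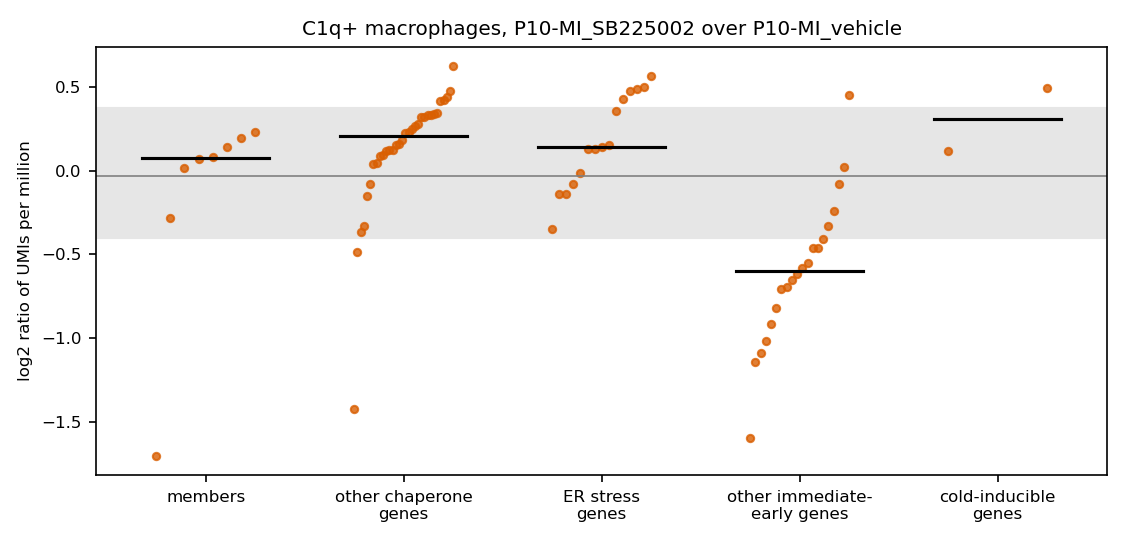
Log2 ratio of CPM, SB225002 over vehicle, in C1q+ macrophages for each measured gene of 5 lists (points, in rising order), with the list's median (black bar), the median of all 6648 genes (grey line, −0.03) and the range from their 10th to 90th percentile (grey band, −0.40 to 0.38). Hspa1a (−1.70) and Hspb1 (−1.43) stand apart from the other chaperone genes, whereas most immediate-early genes lie below 0.

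Over the 18 sums of 6 types in 3 libraries, the genes outside the list whose log2(CPM + 1) was most like that of the summed pair were Capn15 (Pearson r = 0.86), Etfdh (0.80), Ddhd2 (0.78), Egr1 (0.77) and Rbmx (0.76), among 6117 genes. Of the members, Dnajb1 was closest (0.75) and the other 7 lay between 0.05 and 0.25, while Jun reached 0.70 and Fos 0.52. The sums share libraries, and several rest on fewer than 10 UMIs of the pair, so these values are a description only.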

How the data were processed

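The authors deposited raw UMI counts, 1 table of gene symbols by cell barcode for each of the 3 libraries, made on the BMKGENE DG1000 platform from sorted heart cells. The aligner and counter are not given in the sources used here. The submitters' processing notes name mm10 and Seurat 4.1.0 with no role stated. From these counts, barcodes with 500 to 30000 UMIs, 500 to 5000 genes and a mitochondrial share under 10% were kept, and doublets were not called.

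A cell was gated where at least 4 of 7 markers (macrophage, fibroblast, endothelial, B cell), 3 of 6 (monocyte), 5 of 10 (neutrophil) or 4 of 8 (T/NK) were detected, macrophages with at least 20 C1q UMIs (C1qa, C1qb and C1qc) per 10000 UMIs and the others below it, and neutrophils, fibroblasts, endothelial, B and T/NK cells with no second such gate met. Macrophages and monocytes also had to meet none of these last gates, and cells with conflicting gates were given no type. The thresholds were set after the marker distributions were seen. Dividing cells had 2 or more UMIs over their markers. UMIs were summed per library and type and divided by that total. Intervals (95%) are exact Poisson for levels, exact binomial for ratios and Clopper-Pearson for shares, and cover counting error only; UMIs count molecules, but cells of 1 library share its preparation. A ratio was called at 1.5 times or more, for genes that reached 20 CPM in one of the libraries and had 10 UMIs over both. Types with at least 10 cells in both libraries were compared. With 1 library per condition, no count model was fitted. The ratio was tested on simulated data for SB225002 over vehicle in macrophages, where 200 of 200 changed genes among 6382 had the right direction and 95.4% of intervals held the true value. The smaller types were not simulated, and in the SB225002 monocytes 1 cell held 60 of the 85 UMIs of the pair. In macrophages, the 1% of cells with the most UMIs of the pair held 21.0%, 23.3% and 36.2% of them in sham, vehicle and SB225002. The coverage for UMIs gathered in few cells was not tested separately.

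Members, gene lists and tests were chosen with earlier results of these data known. Named in full were the 10 members, Fos and Jun; of each list, the 2 highest and 2 lowest ratios; and the 5 genes most correlated with the summed pair. Alternatives were other cell limits, thinning, TMM (edgeR 4.0.16) and DESeq2 1.42.0 scaling, a mean over cells, a stricter gate, and leaving out dividing cells, shared barcode names or mitochondrial and ribosomal genes. After the data were seen, strata weighting and leaving out the highest cell were added. Python 3.11.15, numpy 2.4.6, scipy 1.17.1 and pandas 2.3.3 were used, with RefSeq promoter windows (GRCm38.p6) and GENCODE gene positions (GRCm38).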

Additional observations from a re-analysis of the deposited data

Results flagged for a closer look

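Several genes had a ratio above 0 in one cell type and below 0 in another, each with a 95% counting interval away from 0; 1 library per condition allows no test of these differences, and they were not tested.

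For vehicle over sham, Hspe1, the mitochondrial co-chaperonin, had a log2 ratio of 2.01 in neutrophils and −0.63 in monocytes, but the sham neutrophils held 7 UMIs of it in 23 cells. Hsp90aa1 stood at 0.90 in neutrophils and −0.11 in macrophages, Hsp90ab1 at 0.21 in fibroblasts and −0.37 in monocytes, Dnaja1 at 0.59 in endothelial cells and −0.13 in macrophages, and Hspa8 at 0.54 in B cells and −0.35 in monocytes. Jun was at 0.91 in B cells and −0.14 in fibroblasts.

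With SB225002, Hspa8 was at 0.37 in neutrophils and −0.18 in monocytes against vehicle, and at 0.61 in B cells and −0.53 in monocytes against sham. Against sham, Fos was at 1.86 in B cells and −1.71 in endothelial cells, and Jun at 0.99 in B cells and −1.41 in fibroblasts. The sham B cells, 20 in all, held 8 UMIs of Fos and 16 of Jun.

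Signal also appeared in barcodes outside the comparisons, those removed for a mitochondrial share of 10% or more (795, 730 and 766). Fos was there at 774 CPM in sham and 1276 CPM in vehicle, a log2 ratio of 0.72, and Jun at 732 and 918 CPM, a ratio of 0.33.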

How the results depend on the processing

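In macrophages, the log2 ratio of summed Hspa1a and Hspa1b lay between −1.94 and −1.57 for SB225002 over vehicle under 12 alternatives, between −2.24 and −2.0 for SB225002 over sham and between −0.51 and −0.26 for vehicle over sham. The lowest value of vehicle over sham, −0.51, came without dividing cells, and −1.57 from weighting the strata by division and Lyve1 to the vehicle makeup, an alternative chosen after seeing the data. Without the minimum of 20 CPM, 2 members were lower by 1.5 times for SB225002 over vehicle and 2 for SB225002 over sham, since Hspa1b was then measured. Without thinning, 22.2%, 14.6% and 5.51% of sham, vehicle and SB225002 macrophages held a UMI of the pair. TMM scaling shifted all macrophage log2 ratios by 0.04, 0.06 and 0.10 for vehicle over sham, SB225002 over vehicle and SB225002 over sham.

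Outside macrophages the values moved more. For SB225002 over vehicle the pair ranged from −2.31 to 0.06 in monocytes, from −1.63 to −0.56 in fibroblasts, from −4.88 to −2.33 in endothelial cells and from −1.94 to −0.28 in neutrophils. Of 2300 values of 211 log2 ratios under the alternatives, 250 had the other sign, on 103 of the ratios, most often when barcode names in more than 1 library were left out (42) or each cell was thinned to 1000 UMIs (44). Of ratios past 1.5 times whose interval left out 0, 4 changed sign, all when thinned. Hspa1a in fibroblasts was 0.67 for SB225002 over vehicle (5 and 4 UMIs), Hspe1 in neutrophils was −0.68 for vehicle over sham and −0.32 for SB225002 over sham, and Jun in B cells was −0.23 for SB225002 over sham. Thinning also gave 0.14 in place of −0.11 for Dnajb1 in macrophages, vehicle over sham. Of 156 values of the main results under the alternatives, 7 moved, those given above. No paired analysis was possible because each condition was 1 library, and no library could be left out for the same reason. Depth limits the pair in neutrophils, endothelial and B cells, with 0 to 21 UMIs per library.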

Other observations

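Barcodes removed for their mitochondrial share, which entered no comparison, held the summed Hspa1a and Hspa1b at 49.5, 57.1 and 13.5 CPM in the sham, vehicle and SB225002 libraries (135, 120 and 18 UMIs). Dnajb1 was there at 31.2, 40.0 and 22.5 CPM (85, 84 and 30 UMIs). The pair was thus lowest in the SB225002 library in the removed barcodes too, with a log2 ratio to vehicle of −2.08. Most other members were lower there as well. The ratio was −0.83 for Dnajb1, −0.54 for Dnaja1, −0.61 for Hspd1, −0.32 for Hspa8 and −0.29 for Hsp90ab1, with intervals below 0. For Hsph1, Hspe1 and Hsp90aa1 it was −0.62, −0.17 and −0.09, with intervals that held 0. Hspa8 and Hsp90ab1 were thus opposite in direction to the kept macrophages. The removed barcodes were not split by cell type, and the part of their makeup was not tested. Their CPM totals include mitochondrial UMIs, and the part of mitochondrial share and depth was not tested either. Hspa8 was lower in the removed barcodes than in all kept cells of each library, with log2 ratios of −0.34, −0.26 and −0.67 in sham, vehicle and SB225002.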
